A study of Mus musculus with 8 samples.

Results

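Rem2 KO neurons were compared with Control neurons in cultures that had been silenced and not depolarised, gene by gene, over 4 libraries paired by replicate number. A gene entered the comparison when its FPKM (fragments normalised to transcript length and to the mapped fragments of the library, summed over its transcripts) was above 0 in all 4 libraries and at least 1 in 2 of them, which held for 12566 of the 23830 genes in the table. The Rem2 KO group and the Control group each held 2 libraries from cultured mouse cortical neurons, described as biological replicates. The cortex was taken at embryonic day 16.5, the cultures were kept for 6 days in Neurobasal medium with B27, and both groups were held in 1 µM tetrodotoxin overnight before harvest. The genotype field of the labels reads Rem2 flx/flx for Control and Rem2 KO alike. Groups were therefore taken from the library titles, and neither the source of Cre nor the removed exons are given in the sources used here. The same cultures with an added 4 h of 55 mM KCl, labelled Rem2 KO_KCl and Control_KCl, gave 2 further libraries each and were used for the shared estimate of spread and for 1 comparison of activity states.

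Rem2 belongs to the RGK family of small GTPases (Rrad, Gem, Rem1 and Rem2), which bind the beta subunits of voltage-gated calcium channels and inhibit the channels. In cortical neurons Rem2 is known as a gene induced by depolarisation and calcium entry, with roles in excitatory synapse formation and in restraining dendritic branching. Tetrodotoxin blocks the sodium channels that carry action potentials, so silenced cultures give the genotype difference after an overnight block of spiking. Activity on the earlier days in culture is not described as blocked, and its part in the differences was not tested.

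Of the 12566 genes, 6 passed an adjusted p of 0.05 in a paired limma fit (0.0477% of the genes tested), 2 of them higher (0.0159%) and 4 lower (0.0318%) in Rem2 KO. Gpc5, Syndig1, Nwd2 and Necab1 fell, and Rasl12 and Ift46 rose. Gpc5 encodes a glypican, a cell-surface heparan sulfate proteoglycan, Syndig1 a transmembrane protein that associates with AMPA-type glutamate receptors at excitatory synapses, and Necab1 a neuronal EF-hand calcium-binding protein. Nwd2 encodes a protein with NACHT and WD repeat domains, Rasl12 a Ras-like small GTPase, and Ift46 a subunit of the intraflagellar transport complex that builds cilia. RefSeq promoter windows (GRCm38.p6, from 250 bases before to 50 bases after a RefSeq start) were available for 5 of the 6 genes. Windows of 2 genes that fell and 2 that rose are shown 5′ to 3′ on the plus strand, so that the start regions of genes that moved in opposite directions can be read side by side, with motif matches in capitals.
Gpc5: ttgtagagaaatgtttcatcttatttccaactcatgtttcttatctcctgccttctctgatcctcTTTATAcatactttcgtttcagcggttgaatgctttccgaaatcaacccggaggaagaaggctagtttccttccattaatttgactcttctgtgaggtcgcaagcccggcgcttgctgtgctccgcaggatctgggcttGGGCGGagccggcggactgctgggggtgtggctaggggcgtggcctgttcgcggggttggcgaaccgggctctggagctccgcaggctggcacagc
Syndig1: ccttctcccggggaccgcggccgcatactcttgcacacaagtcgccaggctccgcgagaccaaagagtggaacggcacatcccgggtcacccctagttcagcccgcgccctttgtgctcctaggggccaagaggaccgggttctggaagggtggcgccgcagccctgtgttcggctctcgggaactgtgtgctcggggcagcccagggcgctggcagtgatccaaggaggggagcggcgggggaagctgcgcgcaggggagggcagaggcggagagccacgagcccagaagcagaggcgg
Rasl12: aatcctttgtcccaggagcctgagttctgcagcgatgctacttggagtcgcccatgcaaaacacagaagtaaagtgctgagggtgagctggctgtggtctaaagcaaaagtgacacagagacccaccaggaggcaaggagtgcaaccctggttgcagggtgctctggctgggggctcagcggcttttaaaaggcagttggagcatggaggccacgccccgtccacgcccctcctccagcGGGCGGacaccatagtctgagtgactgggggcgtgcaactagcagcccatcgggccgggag
Ift46: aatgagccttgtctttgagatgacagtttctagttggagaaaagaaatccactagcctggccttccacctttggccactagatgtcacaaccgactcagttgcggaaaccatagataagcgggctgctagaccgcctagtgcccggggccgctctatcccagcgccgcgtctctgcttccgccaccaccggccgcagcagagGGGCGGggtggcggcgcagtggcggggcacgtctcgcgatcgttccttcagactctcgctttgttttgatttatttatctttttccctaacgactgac
The windows are chr14:115091965-115092264 for Gpc5, chr2:149830533-149830832 for Syndig1, chr9:65398238-65398537 for Rasl12 and chr9:44772759-44773058 for Ift46. The Ift46 window lies inside the annotated gene, which begins at 44770456, and does not cover that outer start.

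Both strands of each window were searched for the cAMP response element TGACGTCA and for the AP-1 site TGANTCA. The core promoter patterns searched were the GC box, spelled GGGCGG, and the TATA box, spelled TATAAA. The search also covered the pattern CCAAT, the MEF2 site and the serum response factor CArG box. The MEF2 pattern can overlap the TATA box, and the CArG pattern can overlap CCAAT. Gpc5 held 1 GC box, and 1 TATA match on the minus strand, Rasl12 and Ift46 each held 1 GC box, and Syndig1 held none of the motifs. Among the 10033 tested genes with a window, 66.6% held a GC box, 6.61% a TATA match, 39.2% CCAAT, 4.196% an AP-1 site, 3.47% a cAMP response element, 1.46% a MEF2 site and 1.29% a CArG box. Nwd2, the remaining gene with a window, held 1 AP-1 site and 1 CCAAT match. These are letter matches in 300 bases and show no binding.

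Rem2 itself (chromosome 14, 54476100 to 54480434, mm10) was read first as a check of the labels. It was measured at 2.13 and 1.70 FPKM in Rem2 KO libraries 1 and 2, against 6.29 and 2.54 FPKM in Control libraries 1 and 2. Both Rem2 KO libraries lay below both Control libraries, and the gap was wide in pair 1 and narrow in pair 2. The difference was -0.80 on the log2(FPKM + 1) scale (SE 0.23), with a limma p of 0.00672 that became 0.417 after adjustment over all genes, so Rem2 did not pass the test. In the depolarised cultures Rem2 measured 11.7 and 12.4 FPKM in Rem2 KO_KCl against 22.5 and 21.4 FPKM in Control_KCl. The values cover the 1 annotated transcript as a whole, and the level left in Rem2 KO cannot be read as functional transcript. Gem measured 1.73 and 2.82 FPKM in Rem2 KO and 2.25 and 2.59 FPKM in Control, and the groups overlapped (difference -0.08, adjusted p = 0.9499 in limma). Rrad, at 0.532 and 0.753 FPKM in Rem2 KO and 0.689 and 0.424 FPKM in Control, and Rem1, at 0 and 0.0738 FPKM in Rem2 KO and 0 and 0.0181 FPKM in Control, were too low to be tested.

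The 4 libraries were alike in sum and unlike by replicate number. FPKM sums ran between 435544 and 466990, and 12248 to 12717 genes reached 1 FPKM in a library. Steps in the lowest values put the depth at roughly 20.3 M fragments in Rem2 KO 1, 38.7 M in Rem2 KO 2, 20.2 M in Control 1 and 39.5 M in Control 2, so replicate number and depth cannot be told apart. Across genes, log2 values of Rem2 KO 1 and Control 1 correlated at 0.994 and those of Rem2 KO 2 and Control 2 at 0.992, whereas libraries 1 and 2 correlated at 0.954 within Rem2 KO and at 0.957 within Control. The spread over genes of the difference within a pair was an SD of 0.199 in pair 1 and 0.207 in pair 2, against an SD of 0.528 between the 2 Rem2 KO libraries and 0.519 between the 2 Control libraries. Among the tested genes with the largest differences, the Rem2 KO 1 library stood apart at 3, Rmrp, Rpph1 and Lars2, none of which passed. Rmrp and Rpph1 encode RNA subunits of RNase MRP and RNase P, and Lars2 a mitochondrial leucyl-tRNA synthetase. Short RNA genes outside the comparison stood apart there too, such as Snord15b, at 209 and 2.73 FPKM in Rem2 KO against 0 and 5.35 FPKM in Control. Others were high in another single library, such as Mir1839, at 0 and 75.7 FPKM in Rem2 KO against 0 and 0 FPKM in Control. Rmrp measured 207.7 and 2.59 FPKM in Rem2 KO against 2.08 and 0.634 FPKM in Control, Rpph1 108.9 and 0.415 FPKM in Rem2 KO against 1.82 and 1.02 FPKM in Control, and Lars2 2679 and 46.01 FPKM in Rem2 KO against 91.99 and 38.95 FPKM in Control. Pan-neuronal and cortical excitatory markers such as Mapt, Dcx and Mef2c were abundant in every library, and progenitor, glial and interneuron markers were present as well.

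The genotype difference was small for most genes. Its median over the 12566 genes was -0.016, with quartiles at -0.096 and 0.063 and a median SE of 0.10, and 9 genes differed by 1 or more in size. The median was -0.073 in pair 1 and 0.044 in pair 2. The sign was the same in both pairs for 5974 genes (47.5%), 2351 of them positive (18.7%) and 3623 negative (28.8%), and the differences of the 2 pairs correlated across genes at r = 0.14 (Spearman's rho 0.08). Both Rem2 KO libraries lay above both Control libraries for 503 genes (4.0%) and below them for 1534 genes (12.2%). A difference of at least 0.5 the same way in both pairs was seen for 53 genes (0.422%), 25 positive and 28 negative. Without a term for replicate number, 0 genes passed in limma, and 158 had an unadjusted p under 0.05 (1.26%), against 1032 with the term (8.21%), 351 of them positive (2.79%) and 681 negative (5.42%).

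**Figure D1:**
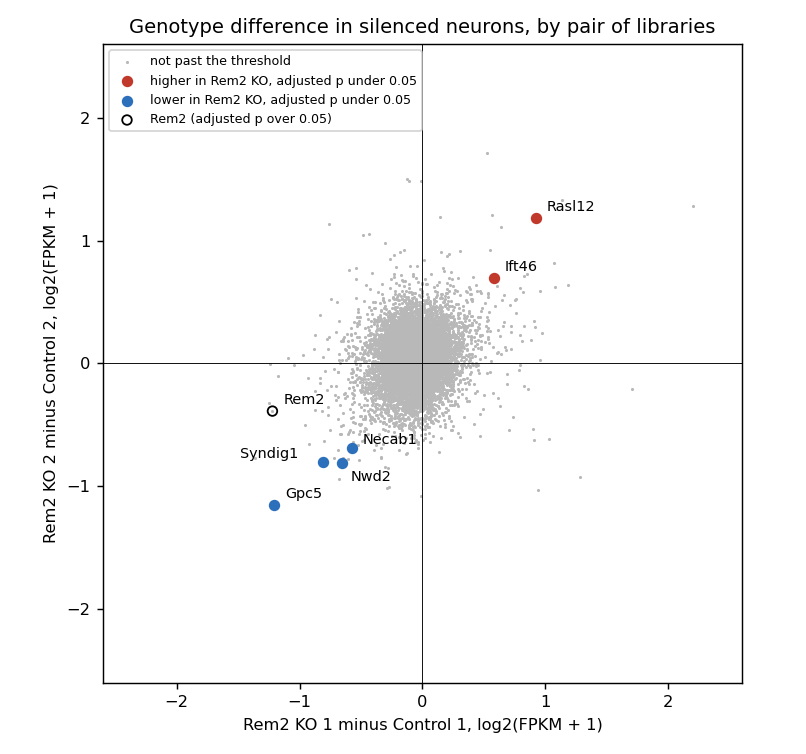
Each point is 1 of the tested genes, placed by the difference Rem2 KO 1 minus Control 1 (horizontal) and Rem2 KO 2 minus Control 2 (vertical), both on the log2(FPKM + 1) scale. Most genes sit in a round cloud near 0, the 2 genes that rose lie at the upper right, the 4 that fell at the lower left with Rem2, and 3 genes fall outside the plotted range of 2.6 in either direction.

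Gpc5 gave the smallest p of all genes. The gene spans chromosome 14, 115092201 to 116525192. It measured 1.73 and 3.09 FPKM in Rem2 KO against 5.28 and 8.12 FPKM in Control, so that each Rem2 KO library held 0.327 and 0.381 times the FPKM of its paired Control library. The 2 groups did not overlap, and both genotypes were higher in library 2 than in library 1. The log2 difference was -1.18 (SE 0.09, adjusted p = 0.0104 in limma), or -1.20 in pair 1 and -1.16 in pair 2.

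Syndig1 (chromosome 2, 149830783 to 150004392) measured 4.38 and 6.09 FPKM in Rem2 KO against 8.40 and 11.3 FPKM in Control. Every Rem2 KO value lay below every Control value, and the paired ratios of 0.521 and 0.537 were nearly equal. The difference was -0.80 (SE 0.09, adjusted p = 0.0372 in limma). Nwd2 (chromosome 5, 63649103 to 63810546) measured 10.7 and 11.6 FPKM in Rem2 KO against 17.4 and 21.0 FPKM in Control, again with no overlap (difference -0.73, SE 0.09, adjusted p = 0.0372). Necab1 (chromosome 4, 14952245 to 15149804) was the most abundant of the 4 genes that fell, at 16.8 and 21.5 FPKM in Rem2 KO against 25.6 and 35.2 FPKM in Control. Library 2 was again the higher one in both genotypes, and the groups did not overlap (difference -0.63, SE 0.07, adjusted p = 0.0372).

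Rasl12 and Ift46 both lie on chromosome 9. Rasl12 (65398485 to 65416138) measured 2.32 and 2.45 FPKM in Rem2 KO against 0.7497 and 0.523 FPKM in Control. Neither Control library reached 1 FPKM, so the gene met the minimum of 1 FPKM only through the 2 Rem2 KO libraries, and that filter fixed its direction. The paired ratios were 3.09 and 4.70, and the difference of 1.05 (SE 0.12, adjusted p = 0.0372 in limma) understates them because the added 1 weighs on low values. Its gene model overlaps that of Slc51b, and those of Gpc5, Syndig1, Nwd2 and Necab1 overlap predicted or clone-named gene models. None of the overlapping genes was tested, and how shared reads were assigned is not given in the sources used here. Ift46 (44770456 to 44792714) measured 30.4 and 40.1 FPKM in Rem2 KO against 19.98 and 24.4 FPKM in Control, with paired ratios of 1.52 and 1.64. No Control library reached the lower of the Rem2 KO libraries, and the difference was 0.64 (SE 0.07, adjusted p = 0.0372).

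The 6 calls need all 4 libraries. With any single library left out, all 6 kept their direction and none passed, with adjusted p values of 0.0562 to 0.276 for Gpc5 and up to 0.397 for Syndig1. Without the replicate term the adjusted p was 1.00 for each of them. Only 2 libraries stand behind each group, so every value rests on 2 paired differences.

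**Figure D2:**
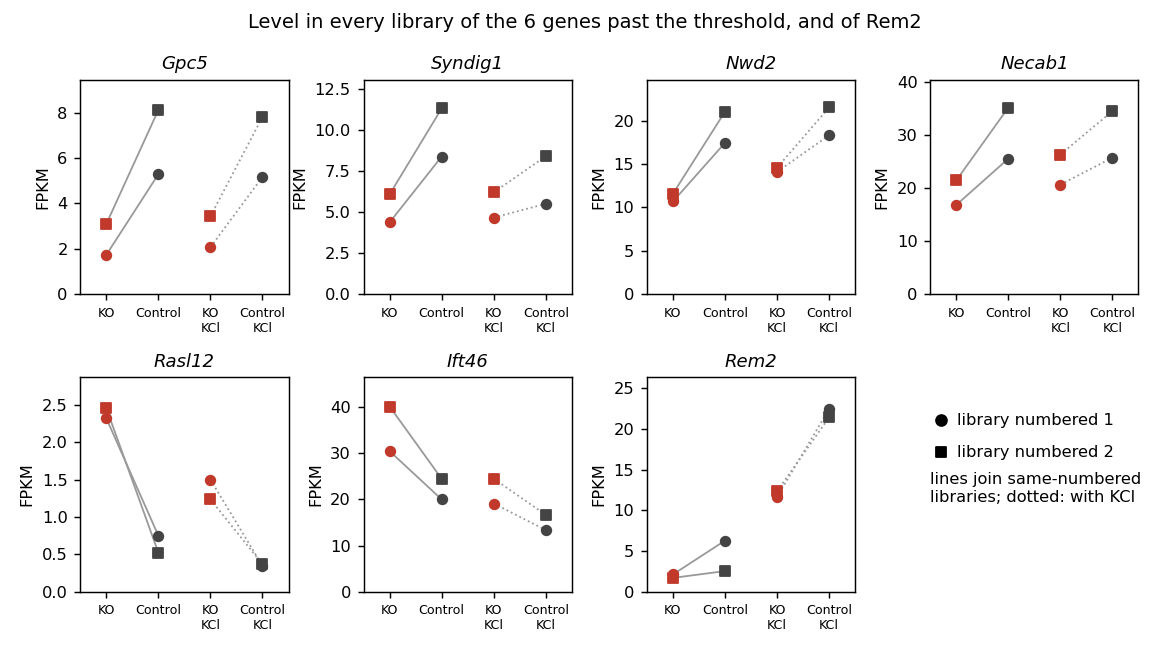
FPKM of the 6 genes that passed the test and of Rem2 in all 8 libraries, with circles for libraries 1, squares for libraries 2 and lines joining same-numbered libraries of the 2 genotypes. In silenced cultures the Rem2 KO values of Gpc5, Syndig1, Nwd2 and Necab1 lie below both Control values, and those of Rasl12 and Ift46 above them.

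The next genes in order did not pass. They were picked among genes with groups apart and the same sign in both pairs, so neither property is a result for them. Among the 13 with positive differences, Slc26a7, an anion exchanger, measured 3.49 and 3.16 FPKM in Rem2 KO against 1.14 and 1.36 FPKM in Control (difference 0.94, adjusted p = 0.0595 in limma). Gpr153, an orphan G-protein-coupled receptor, measured 6.74 and 8.44 FPKM in Rem2 KO against 3.36 and 4.76 FPKM in Control (difference 0.77, adjusted p = 0.0595). Both genes passed when only genes above 0 in all 8 libraries were tested. Lynx1, a membrane-anchored modulator of nicotinic receptors, measured 3.62 and 2.74 FPKM in Rem2 KO against 1.19 and 1.43 FPKM in Control (difference 0.85, adjusted p = 0.106).

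Of the other genes with positive differences, Rasgrf1, a calcium-responsive Ras exchange factor, measured 3.04 and 1.46 FPKM in Rem2 KO against 1.38 and 0.710 FPKM in Control. Chn2, a Rac GTPase-activating protein, measured 19.6 and 21.2 FPKM in Rem2 KO against 14.03 and 16.1 FPKM in Control, and Rgs16, a regulator of G-protein signalling, 8.44 and 10.7 FPKM in Rem2 KO against 6.39 and 8.11 FPKM in Control. Their differences were 0.64, 0.41 and 0.36, and adjusted p values lay at 0.202, 0.223 and 0.247. Lgi1, a secreted ligand of synaptic ADAM22, measured 9.08 and 8.83 FPKM in Rem2 KO against 6.76 and 5.40 FPKM in Control. Igsf21, a synaptic adhesion protein, measured 37.7 FPKM in both Rem2 KO libraries against 30.7 and 22.9 FPKM in Control. For Tshz2, Rspo3, Tle1, Lrrn1 and Mfap2 the differences were between 0.31 and 0.52, with adjusted p values of 0.207 to 0.259 in limma.

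Among the 11 further named genes with negative differences, Dcn, which encodes the matrix proteoglycan decorin, had the widest gap, with 1.15 and 1.17 FPKM in Rem2 KO against 4.53 and 2.70 FPKM in Control (difference -1.07, adjusted p = 0.106 in limma). Decorin is also a marker of meningeal fibroblasts. Lpl, lipoprotein lipase, measured 4.90 and 7.83 FPKM in Rem2 KO against 7.92 and 11.99 FPKM in Control (difference -0.58, adjusted p = 0.106). Satb1, a chromatin organiser of cortical neurons, measured 18.8 and 22.4 FPKM in Rem2 KO against 26.2 and 31.0 FPKM in Control (difference -0.46, adjusted p = 0.113).

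Of the other genes with negative differences, Cnih3, an auxiliary subunit of AMPA receptors, measured 14.5 and 10.8 FPKM in Rem2 KO against 20.5 and 16.3 FPKM in Control, and Cnksr2, a postsynaptic scaffold, 8.73 and 10.7 FPKM in Rem2 KO against 12.5 and 14.8 FPKM in Control. Gucy1b1, a subunit of the nitric oxide receptor guanylate cyclase, measured 45.8 and 46.4 FPKM in Rem2 KO against 59.8 and 62.3 FPKM in Control. The differences of these 3 were -0.51, -0.45 and -0.40, with adjusted p values of 0.121, 0.128 and 0.128 in limma. Edil3, an integrin-binding matrix protein, measured 12.3 and 8.37 FPKM in Rem2 KO against 17.6 and 13.4 FPKM in Control. Ccdc85a, Fam241a, Dipk2a and Slf1 had differences of -0.69, -0.69, -0.56 and -0.53, and their adjusted p values lay between 0.0972 and 0.107.

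**Figure D3:**
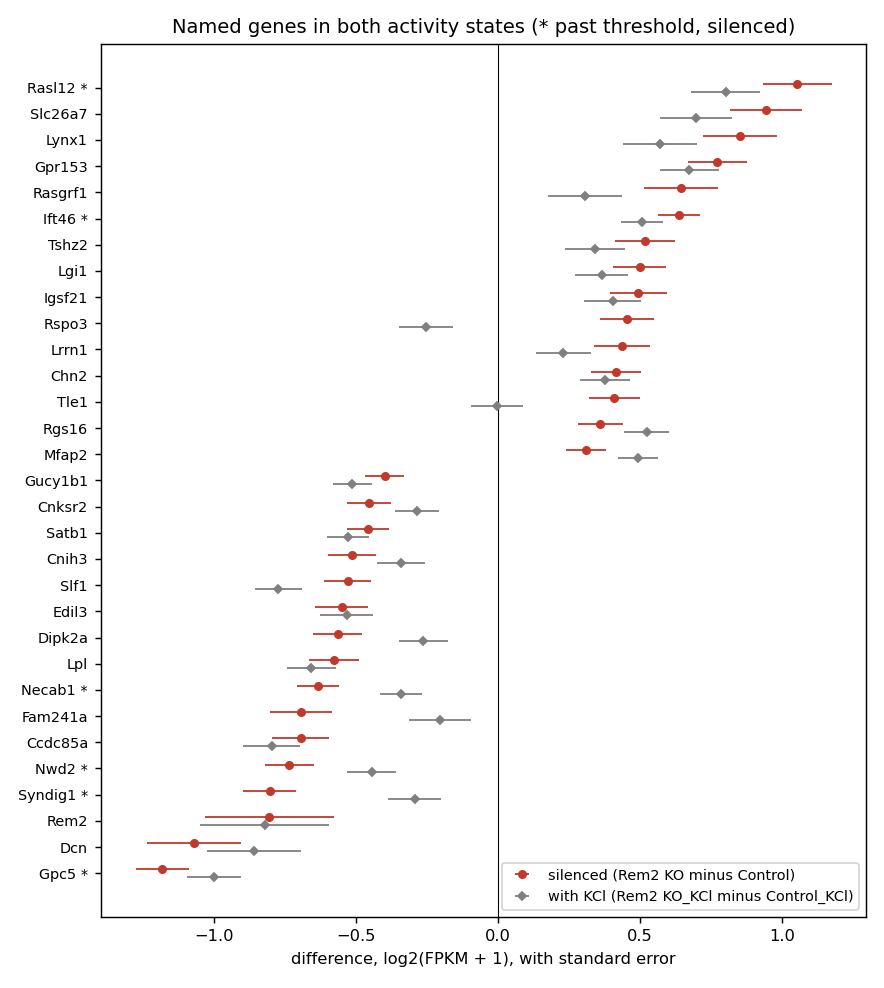
Log2(FPKM + 1) differences with their standard errors for the named genes, with circles for Rem2 KO minus Control in silenced cultures and diamonds for Rem2 KO_KCl minus Control_KCl. Stars mark the 6 genes past the threshold in silenced cultures, and most pairs of symbols lie on the same side of 0, with Rspo3 on opposite sides and Tle1 near 0 with KCl.

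Rem2 acts on calcium channels, and the 15 genes of voltage-gated calcium channel subunits were all tested. None passed (0.0477% of all tested genes did), and 12 differences were negative (55.5% of all tested genes were). In 6 both Rem2 KO libraries lay below both Control libraries (12.2% of all tested genes did). The list median was -0.10 against -0.016 for all genes. Cacna1g, a T-type pore subunit, measured 8.15 and 8.02 FPKM in Rem2 KO against 11.2 and 11.3 FPKM in Control (difference -0.43, adjusted p = 0.163 in limma). With KCl the Cacna1g difference was 0.02. Cacna1h and Cacna1i, the other T-type pore subunits in the list, had silenced differences of 0.07 and -0.17. Cacna2d1, an auxiliary subunit that promotes channel surface expression, measured 21.7 and 19.5 FPKM in Rem2 KO against 27.6 and 32.1 FPKM in Control (difference -0.51, adjusted p = 0.202). Cacnb4, one of the beta subunits bound by RGK proteins, measured 9.42 and 8.29 FPKM in Rem2 KO against 11.5 and 11.7 FPKM in Control. The median difference of the list was -0.21 in pair 1 and -0.007 in pair 2, so pair 1 carried most of it. Of 32 tested genes of calcium-calmodulin signalling none passed (0.0477% of all), 23 were negative (55.5% of all) and the median was -0.05. Camk2a, the alpha subunit of the calmodulin kinase, measured 21.9 and 21.1 FPKM in Rem2 KO against 18.8 and 16.3 FPKM in Control, and Camkk2, a kinase that activates other calmodulin kinases, 22.1 and 21.0 FPKM in Rem2 KO against 26.3 and 25.8 FPKM in Control.

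Genes that report neuronal activity gave no call, and with 0.0477% of all tested genes called, lists this short would rarely hold one. Of 24 tested immediate-early genes 19 were negative (55.5% of all tested genes), with a median of -0.10 that was -0.27 in pair 1 and 0.04 in pair 2. With KCl 14 of the 24 were positive and 10 negative, with a median of 0.05, and the change was not tested. Nr4a2, an orphan nuclear receptor, measured 7.05 and 7.89 FPKM in Rem2 KO against 10.0 and 10.3 FPKM in Control, and Egr3, a zinc-finger transcription factor, 2.01 and 2.20 FPKM in Rem2 KO against 3.18 and 2.80 FPKM in Control. Their groups did not overlap, and the adjusted p values were 0.434 and 0.433. Among 22 tested late effectors the median was -0.01, with 12 negative and 10 positive differences. Inhba, which encodes an activin subunit, measured 5.68 and 12.3 FPKM in Rem2 KO against 7.43 and 21.6 FPKM in Control, so its groups overlapped although both pairs differed the same way (difference -0.55, adjusted p = 0.302). Plk3, a polo-like kinase, measured 7.49 and 7.61 FPKM in Rem2 KO against 9.80 and 8.89 FPKM in Control.

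No member of the synapse lists passed (0.0477% of all tested genes did). Of 71 tested synaptogenic molecules 49 were negative (55.5% of all tested genes), 16 lay below (12.2% of all) and 4 above (4.0% of all) with no overlap of the groups, and the median was -0.06. Lrrc4c, a postsynaptic netrin-G ligand, measured 11.2 and 12.1 FPKM in Rem2 KO against 19.5 and 18.0 FPKM in Control (difference -0.65, adjusted p = 0.224 in limma). Cadm2, a synaptic adhesion molecule, measured 16.2 and 11.8 FPKM in Rem2 KO against 19.9 and 22.2 FPKM in Control (difference -0.57, adjusted p = 0.247). Syndig1 itself was not a member of any list. The 32 glutamate receptor and auxiliary subunit genes had a median of -0.04, with 20 negative (55.5% of all tested genes), 8 below (12.2% of all) and 5 above (4.0% of all) without overlap, and Cnih2, a further AMPA receptor auxiliary subunit, measured 193 and 158 FPKM in Rem2 KO against 231 and 199 FPKM in Control. The 25 postsynaptic density genes had a median of -0.06, and Nrgn, the calmodulin-binding protein neurogranin, measured 61.9 and 72.6 FPKM in Rem2 KO against 101 and 89.4 FPKM in Control (adjusted p = 0.224).

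No presynaptic, GABAergic, channel or axon guidance gene passed (0.0477% of all tested genes did). Of 35 presynaptic release genes 25 were negative, with a median of -0.08. Syt4, a synaptotagmin of dense-core vesicles, measured 160 and 120 FPKM in Rem2 KO against 230 and 207 FPKM in Control (difference -0.65, adjusted p = 0.176 in limma), and Syt1, the calcium sensor of synaptic vesicles, 71.2 and 85.7 FPKM in Rem2 KO against 88.4 and 101 FPKM in Control. The 20 GABAergic synapse genes split into 11 negative and 9 positive, with a median of -0.06. Gabra4, a GABA-A receptor subunit, measured 6.93 and 6.31 FPKM in Rem2 KO against 8.94 and 8.83 FPKM in Control. Of 45 sodium and potassium channel genes 35 were negative (55.5% of all tested genes) and 15 lay below without overlap (12.2% of all), with a median of -0.12 that was -0.11 in pair 1 and -0.09 in pair 2. Kcnh1, a voltage-gated potassium channel, measured 1.64 and 1.66 FPKM in Rem2 KO against 2.76 and 2.96 FPKM in Control (difference -0.54, adjusted p = 0.193), and Kcnip4, an auxiliary subunit of A-type potassium channels, 5.71 and 5.73 FPKM in Rem2 KO against 6.88 and 8.57 FPKM in Control. Of 41 axon guidance genes 25 were negative, with a median of -0.06, and their smallest p values were those of Robo2, a Slit receptor (-0.34), and Sema7a, a semaphorin (-0.33).

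In the cholesterol synthesis list every tested member had a negative difference. The sign was negative in both pairs for 19 of the 21 genes (28.8% of all tested genes), and in 12 the Rem2 KO libraries lay below both Control libraries (12.2% of all), yet none passed the test and the median of -0.24 was -0.12 in pair 1 and -0.31 in pair 2. Mvd, which makes isopentenyl pyrophosphate in the mevalonate pathway, measured 36.8 and 37.5 FPKM in Rem2 KO against 46.0 and 59.8 FPKM in Control (difference -0.49, adjusted p = 0.577 in limma). Nsdhl, a sterol dehydrogenase of the later steps, measured 25.6 and 28.3 FPKM in Rem2 KO against 31.9 and 35.01 FPKM in Control (difference -0.30, adjusted p = 0.522). The FPKM of the 21 genes summed to 1378 and 1357 in Rem2 KO against 1480 and 1791 in Control. Genes of a sterol pathway are known to vary together, so the 21 signs are not independent. In the depolarised cultures the same genes had a median difference of 0.02, with 13 positive and 8 negative, and the change of the list between states was not tested.

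**Figure D4:**
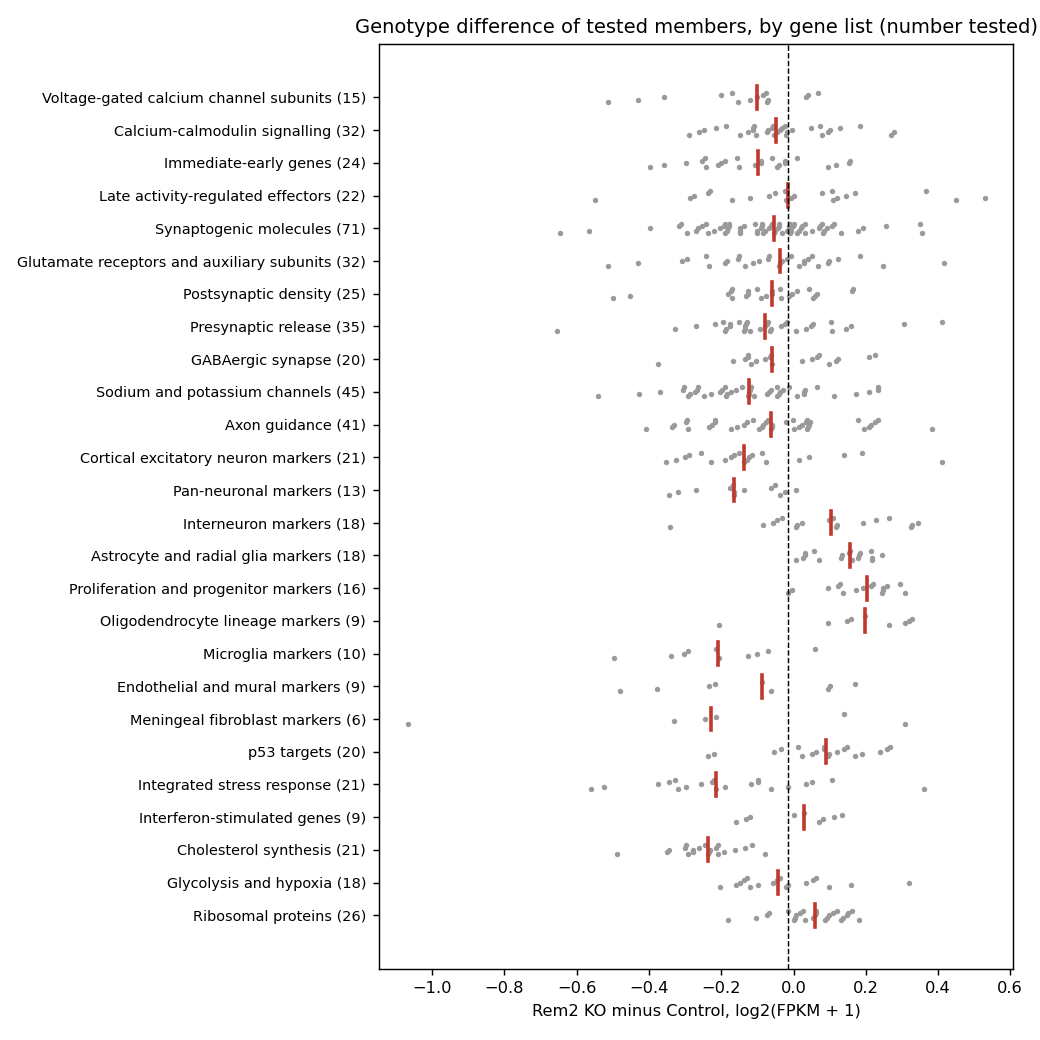
Each point is the log2(FPKM + 1) difference, Rem2 KO minus Control in silenced cultures, of 1 tested member of the gene list named at the left, with the number tested in brackets. Bars mark list medians and the dashed line the median of all tested genes, and cholesterol synthesis lies wholly to the left of 0 while astrocyte and radial glia markers lie wholly to the right.

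Marker lists of cell types were described by their signs, medians and FPKM sums, the sums running over every list member in the table, tested or not. Of 13 tested pan-neuronal markers 12 were negative (55.5% of all tested genes) and 6 lay below without overlap (12.2% of all), with a median of -0.16, and the FPKM of the list summed to 3096 and 3417 in Rem2 KO against 3472 and 3712 in Control. In the depolarised cultures the same 13 genes had a median of 0.02, with 7 positive and 6 negative, and the change was not tested. Nefh, the heavy neurofilament subunit, was listed at 0 in all 4 silenced libraries. Nefl, a neurofilament subunit, measured 12.7 and 12.6 FPKM in Rem2 KO against 16.1 and 16.6 FPKM in Control. Of 21 cortical excitatory neuron markers 16 were negative (median -0.14), with sums of 935.5 and 1035 FPKM in Rem2 KO against 1005 and 1176 FPKM in Control. Within that list Neurod1, a proneural transcription factor, measured 9.24 and 6.86 FPKM in Rem2 KO against 10.9 and 10.0 FPKM in Control, whereas Slc17a6, a vesicular glutamate transporter, measured 18.0 and 17.0 FPKM in Rem2 KO against 12.3 and 13.6 FPKM in Control. In bulk RNA fewer cells of a type and less RNA per cell cannot be told apart, and the part of culture make-up in the gene differences above was not tested.

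All 18 astrocyte and radial glia markers had positive differences (44.5% of all tested genes) and 5 lay above without overlap (4.0% of all). The sign was positive in both pairs for 11 of the 18 (18.7% of all). Their median of 0.16 was 0.06 in pair 1 and 0.18 in pair 2. Members of such a list can vary together, so the 18 signs are not independent. Their FPKM summed to 2217 and 3086 in Rem2 KO against 2084 and 2583 in Control. Glul, glutamine synthetase, measured 135 and 139 FPKM in Rem2 KO against 122 and 114 FPKM in Control, and Sox2, a progenitor transcription factor, 62.4 and 81.8 FPKM in Rem2 KO against 56.6 and 63.8 FPKM in Control. None of the 18 passed, and the adjusted p values of these 2 were 0.522 and 0.526 in limma. Of 16 proliferation and progenitor markers 14 were positive (median 0.20), with sums of 257.9 and 468.5 FPKM in Rem2 KO against 256.6 and 385.2 FPKM in Control. Mki67, a mark of cycling cells, measured 7.03 and 27.995 FPKM in Rem2 KO against 6.18 and 20.1 FPKM in Control, and Mcm6, a replication helicase subunit, 13.97 and 35.7 FPKM in Rem2 KO against 12.4 and 26.3 FPKM in Control. Library number moved these genes more than genotype did, which makes overlap of the groups likely, and in none of the 16 were the groups apart (16.2% of all tested genes). The sign was positive in both pairs for 9 of the 16 (18.7% of all) and negative in both for 0 (28.8% of all). With KCl all 16 differences were positive (57.1% of all). These signs are not independent either.

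Of 9 oligodendrocyte lineage markers 8 were positive (median 0.20, sums of 341.8 and 454.0 FPKM in Rem2 KO against 356.2 and 324.6 FPKM in Control). Mbp, myelin basic protein, measured 10.4 and 8.61 FPKM in Rem2 KO against 8.001 and 6.803 FPKM in Control, and Pdgfra, a receptor of oligodendrocyte precursors, 27.1 and 36.2 FPKM in Rem2 KO against 25.4 and 24.8 FPKM in Control. The list median was -0.003 in pair 1 and 0.35 in pair 2. Of 18 interneuron markers 13 were positive (median 0.10, sums of 589.5 and 690.8 FPKM in Rem2 KO against 641.4 and 558.4 FPKM in Control). Dlx1, a homeobox gene of interneuron precursors, measured 35.6 and 59.5 FPKM in Rem2 KO against 32.0 and 45.6 FPKM in Control, while Calb2, the calcium-binding protein calretinin, measured 16.6 and 18.0 FPKM in Rem2 KO against 22.2 and 22.2 FPKM in Control.

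Markers of microglia, vessels and meninges were read last. Of 13 microglia markers Itgam, P2ry12 and Tmem119 were too low to be tested. Microglia markers summed to 19.8 and 52.6 FPKM in Rem2 KO against 27.9 and 57.8 FPKM in Control. Of the 10 tested 9 were negative (median -0.21), and C1qc and C1qa, complement genes of microglia, overlapped between groups with differences of -0.50 and -0.30. Endothelial and mural markers summed to 34.98 and 107.6 FPKM in Rem2 KO against 45.8 and 97.7 FPKM in Control, and the 9 tested had a median of -0.09. Cldn5, a tight-junction protein of endothelium, had a difference of -0.48. Acta2, smooth muscle actin, measured 6.37 and 79.0 FPKM in Rem2 KO against 5.62 and 69.4 FPKM in Control (difference 0.17), so both libraries numbered 2 were high and both numbered 1 low. Meningeal fibroblast markers summed to 30.9 and 44.9 FPKM in Rem2 KO against 33.7 and 35.8 FPKM in Control, most of it from Pdgfra, and the 6 tested had a median of -0.23. Col3a1, a fibrillar collagen, measured 0.325 and 1.52 FPKM in Rem2 KO against 0.858 and 1.84 FPKM in Control. Haemoglobin genes summed to at most 0.976 FPKM in a library and none was tested.

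Stress and housekeeping lists held no call either (0.0477% of all tested genes were called). The 21 genes of the integrated stress response had a median of -0.22 that was -0.47 in pair 1 and 0.04 in pair 2, and their sum was 777.6 and 685.3 FPKM in Rem2 KO against 1043 and 653.8 FPKM in Control, so Control 1 stood apart. Xbp1, a transcription factor of the unfolded protein response, had a difference of -0.26 and Vldlr, a lipoprotein receptor, of -0.22. The 20 p53 targets had a median of 0.09 (16 positive), with Ccng1, a cyclin G, at 0.26 and Phlda3, a repressor of Akt, at 0.24. The 9 tested interferon-stimulated genes had a median of 0.03, with Stat2, a transducer of interferon signals, at -0.16. The 18 glycolysis and hypoxia genes had a median of -0.04, with Vegfa, an angiogenic growth factor, at -0.20 and Eno2, the neuronal enolase, at -0.15. The 26 ribosomal protein genes had a median of 0.06, which was -0.13 in pair 1 and 0.27 in pair 2, and differences of -0.18 for Rps19 and 0.14 for Rpl5.

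Gene span was compared as a description. The annotated span had a median of 110 kb over the 15 named genes with negative differences and 44.3 kb over the 15 with positive differences, against 24.4 kb over all tested genes. Spans over 200 kb were found in 4 of the 15, in 3 of the 15 and in 6.37% of all tested genes. Among the 189 tested genes spanning over 500 kb the median difference was -0.06 in both pairs, 23.8% lay below Control without overlap (12.2% of all tested genes) and 6.35% above it (4.0% of all). Among the 3090 genes under 10 kb the median was -0.12 in pair 1 and 0.08 in pair 2, 11.2% lay below Control without overlap and 4.50% above it. The 2 pairs thus differed in sign for short genes and had the same sign for the longest.

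**Figure D5:**
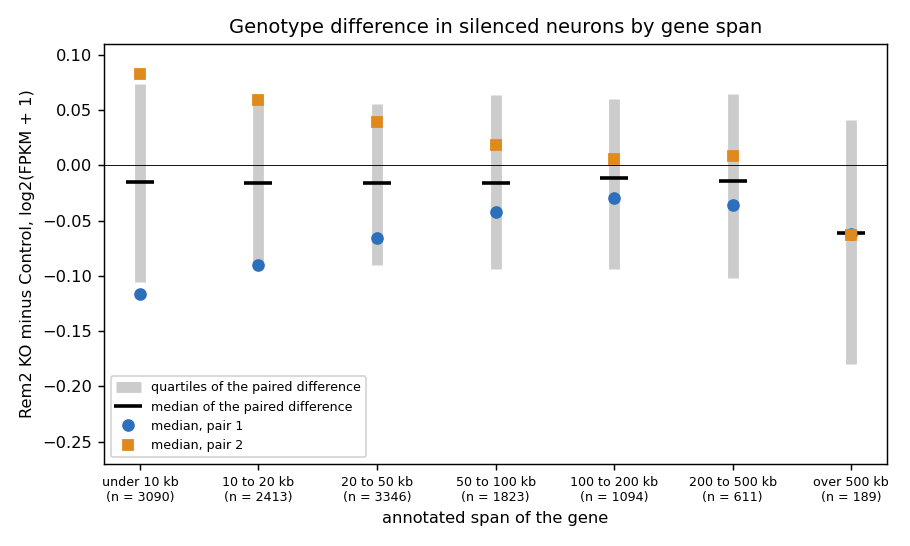
Log2(FPKM + 1) difference, Rem2 KO minus Control in silenced cultures, by the annotated span of the gene. Grey bars run between quartiles, black lines mark the median of the paired difference and symbols the median of each pair, which converge at -0.06 in the genes over 500 kb.

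The chromosomal neighbourhood of Rem2 was looked at separately. The 27 tested genes within 1 Mb of it had a median difference of 0.02, ranged between -0.25 and 0.43, and none passed. Over the 438 tested genes of chromosome 14 the median was -0.009, and Gpc5 was the 1 gene called. Among all 12566 tested genes 6 were called (0.0477%).

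The genotype difference with KCl was used to ask whether the silenced result is particular to the silenced state. In the depolarised cultures 19 of the same 12566 genes passed (0.151%), 2 higher (0.0159%) and 17 lower (0.135%) in Rem2 KO_KCl, and 1046 had an unadjusted p under 0.05 (8.32%). The filter asked for values above 0 only in the silenced libraries. The 19 include Agbl5 (higher) and Surf1 (lower), each listed at 0 in both libraries of a depolarised group. Positive differences made up 57.1% of the genes with KCl and 44.5% in silenced cultures, where 55.5% were negative. Gpc5 was the 1 gene called in both states. It measured 2.07 and 3.43 FPKM in Rem2 KO_KCl against 5.16 and 7.81 FPKM in Control_KCl (difference -0.999, adjusted p = 0.0133 in limma). Rasl12 and Ift46 had differences of 0.80 and 0.51 with KCl, and both lay just short of the threshold there (adjusted p = 0.0548). The differences of Syndig1, Nwd2 and Necab1 were -0.29, -0.44 and -0.34 with KCl, against -0.80, -0.73 and -0.63 in silenced cultures.

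For Syndig1 the silenced minus depolarised difference was -0.51 with an unadjusted p of 0.00422, and after adjustment over all genes it was 0.999, as for the other 5. A state dependence of the 6 calls was therefore not shown. Ccdc85a, Lpl, Slf1, Satb1 and Gucy1b1, which did not pass in silenced cultures, passed with KCl at differences of -0.80, -0.66, -0.77, -0.53 and -0.51. Their interaction terms did not pass, so they too were not shown to differ between states. Over all genes the 2 differences correlated at r = 0.36, a description across genes that share the replicate sets. The interaction passed for 2 genes (0.0159%), Agbl5 with a negative term and Surf1 with a positive one (0.00796% each), both listed at 0 in a depolarised group, and 446 genes had an unadjusted p under 0.05 (3.55%).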

How the data were processed

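RNA was sequenced from 4 silenced and 4 depolarised libraries of cultured mouse cortical neurons, prepared from 500 ng of total RNA each, per the labels' protocols. The tools TopHat and Cufflinks and the build mm10 are named in the submitters' processing notes, without versions. The authors deposited FPKM per RefSeq transcript, per the file headers, with no read counts, so no count test was run and intervals that need depth are not given. Of 34353 accessions 34015 matched a RefSeq gene. FPKM values were summed per gene, and 302 genes were left out because an accession was repeated or a value was absent. The rule of the comparison left 12566 genes. A further 2642 genes stayed above 0 but short of 1 FPKM in 2 libraries, and 243 had a 0, and the second-highest value was 1.0004 FPKM just inside the minimum and 0.9986 FPKM just outside.

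Values were tested as log2(FPKM + 1) with limma 3.58.1 in R 4.3.3, with empirical Bayes and a variance trend, 4 group means and replicate number as a block over all 8 libraries (3 residual degrees of freedom), and Benjamini-Hochberg adjustment over the 12566 genes at 0.05. The added 1 makes differences of low genes smaller. Pairing by number was checked by correlating deviations from group means, which gave 0.872 for Rem2 KO with Control and 0.812 to 0.882 over the 6 pairs of groups. The p-values rest on the spread left among the 8 libraries once group means and replicate number were taken out. Named genes were the RGK family, up to 15 genes a direction that passed or had the smallest p with groups apart, the same sign in both pairs and an average of 2 FPKM or more in Rem2 KO or Control, without predicted, microRNA, snoRNA and histone genes, up to 4 passing members or the 2 with the smallest p of each of 28 lists, and 5 genes by interaction p. Other named genes, among them Cacnb4, Rmrp, Rpph1, Lars2, Mapt, Dcx and Mef2c, were chosen after their values were seen. Some genes under this rule are not reported here. Members and lists were chosen with earlier results of these data known. Alternatives were pseudocounts of 0.1 and 0.5, other level filters, TMM-type, quantile and upper-quartile scaling, fits without the block, on the 4 silenced libraries or without the trend, leaving out each library, keeping the left-out genes, and testing transcripts alone.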

Additional observations from a re-analysis of the deposited data

Results flagged for a closer look

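The genotype difference of 2 genes differed between silenced and depolarised neurons by the interaction term of the limma fit. Agbl5, a carboxypeptidase that acts on tubulin, measured 8.02 and 8.86 FPKM in Rem2 KO against 8.47 and 10.6 FPKM in Control. With KCl it measured 3.14 and 3.10 FPKM in Rem2 KO_KCl against 0 in both Control_KCl libraries (interaction -2.20, adjusted p = 0.00475). Surf1, an assembly factor of cytochrome c oxidase, measured 20.5 and 35.2 FPKM in Rem2 KO against 30.2 and 21.5 FPKM in Control. With KCl it was at 0 in both Rem2 KO_KCl libraries against 33.9 and 21.3 FPKM in Control_KCl (interaction 4.88, adjusted p = 0.00485). In both genes the silenced groups overlapped and the term came from depolarised libraries listed at 0. A failed estimate and an absent transcript look alike in these values, and which of them applies was not tested. When genes were limited to those above 0 in all 8 libraries, 0 interactions passed in limma and 461 had an unadjusted p under 0.05.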

How the results depend on the processing

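The 6 calls (2 higher, 4 lower) kept their direction under the 17 alternatives run per gene, and their number did not hold. The limma total was 0 without the replicate block, over all 8 libraries (158 genes at an unadjusted p under 0.05) and over the 4 silenced libraries alone (63 genes), with 0 higher and 0 lower in each. With the block on the 4 silenced libraries alone it was 164 (74 higher, 90 lower), with 1 residual degree of freedom and an infinite prior, and there Rem2 passed at the same -0.80 (adjusted p = 2.34e-06). It was 11 for genes above 0 in all 8 libraries (5 higher, 6 lower, all 6 included), 3 with no level filter (2 higher, 1 lower, none of the 6), 1 with a pseudocount of 0.1 (0 higher, 1 lower), 2 each with TMM-type scaling, quantile normalization and no variance trend (1 higher, 1 lower), 3 with upper-quartile scaling (2 higher, 1 lower), and 0 with transcripts tested alone (0 higher, 0 lower, 940 at an unadjusted p under 0.05). Leaving out 1 library gave 0 to 2 calls (0 to 1 higher, 0 to 1 lower). They were 0 without Rem2 KO 1, Control 1 or Control 2, with 1578, 985 and 908 genes at an unadjusted p under 0.05, and 2 without Rem2 KO 2, neither of them among the 6. Gpc5 passed in 10 of 17 alternatives, Ift46 in 8 of 17, Rasl12 in 6 of 16, and Necab1, Nwd2 and Syndig1 in 5 of 17. A pseudocount of 0.5 and keeping the left-out genes each gave the same 6 calls. A minimum of 5 FPKM also gave 6 calls, 5 of them shared with the main fit. The 19 calls with KCl became 0 with no level filter or no block, 31 above 0 in all 8 libraries, 3 with quantile normalization, 11 without the trend, 1 with transcripts alone and 8 to 17 with a library left out. The 2 interactions became 0 above 0 in all 8 libraries, without the block and with transcripts alone, and 0 to 3 with a library left out. With a library left out, signs reversed for Gem (-0.33 to 0.16), Rpl5 (-0.027 to 0.30) and Surf1 (-0.49 to 0.64, and -0.18 without Control 2), none of which passed. The cause of these changes was not tested, and 2 libraries a group with no counts limit all of them.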

Other observations

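Some genes outside the comparison were listed at 0 in both libraries of 1 group. Igfbp7, a secreted protein that binds insulin-like growth factors, was listed at 0 in both Rem2 KO libraries against 19.998 and 19.2 FPKM in Control, and measured 17.0 and 17.8 FPKM in Rem2 KO_KCl against 21.3 and 17.8 FPKM in Control_KCl. Dnlz, a mitochondrial chaperone partner, measured 9.77 and 8.65 FPKM in Rem2 KO against 0 in both Control libraries, and it was at 0 in all 4 depolarised libraries too. Among genes that reached 5 FPKM in a silenced library, 232 had a 0 in at least 1 of the 4. Of these, 5 had it in both Rem2 KO libraries alone and 5 in both Control libraries alone, most of the 10 being microRNA or snoRNA genes. In others the 0 followed library number, as for Ubb, at 575 and 0 FPKM in Rem2 KO against 639 and 0 FPKM in Control. Whether a listed 0 is an absent transcript or a failed estimate was not tested, for Igfbp7 and Dnlz as well. Rmrp and Rpph1, which stood apart in Rem2 KO 1, were also high in Rem2 KO_KCl 2. Rmrp measured 5.84 and 73.7 FPKM in Rem2 KO_KCl against 5.62 and 1.08 FPKM in Control_KCl, and Rpph1 2.53 and 50.7 FPKM in Rem2 KO_KCl against 1.62 and 1.56 FPKM in Control_KCl. Lars2 measured 109.7 and 129.3 FPKM in Rem2 KO_KCl against 107.05 and 41.03 FPKM in Control_KCl. The predicted gene Gm38671 measured 127.7 and 211.3 FPKM in Rem2 KO against 57.4 and 83.5 FPKM in Control (difference 1.23, adjusted p = 0.0515 in limma), and 68.8 and 84.1 FPKM in Rem2 KO_KCl against 65.8 and 63.9 FPKM in Control_KCl.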
